A study of Ovis aries with 8 samples.

Results

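Cathelicidins were measured in the late-gestation fetal sheep pituitary by 6 array probes for 4 genes: BAC5 with 2 probes, CATHL3 with 1, CATHL1B with 2 and SC5 with 1. They are 6 of the 15008 probes of the array, and 4 of the 858 genes to which a name could be given. The family was chosen by the annotation of the scanner files, taking every probe whose name or description is that of a cathelicidin, and it was selected for description with the hypoxia contrast and the array-to-array spread of BAC5 and CATHL3 in view. CATHL3 and CATHL1B carry their older names on the array (BAC7.5 and DODE) and were recognised by accession in RefSeq, and SC5 was taken in because its description calls it a cathelin-related prepropeptide. All 6 probes passed the filter on dim probes, as did 13036 probes in all, so no member was lost.

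The RNA came from 4 fetuses whose ewe breathed air diluted with nitrogen for 30 min (hypoxia) and from 4 whose ewe did not (normoxia). Fetuses were killed 60 min after the onset of either period, and both groups were catheterized twins, with 1 fetus taken from each pregnancy. Each group held 3 males and 1 female. Gestational age was 130.75 ± 1.26 days in the hypoxic group and 126.5 ± 2.65 days in the normoxic group (mean ± SD, n = 4), with ranges of 129 to 132 and 123 to 129 days. The extraction text of the labels speaks of hypothalamic RNA, whereas every other label gives the pituitary. The brightest anterior lobe genes were those of growth hormone (GH), prolactin (PRL) and pro-opiomelanocortin (POMC), at mean log2 intensities of 19.004, 18.935 and 18.854 in hypoxia and 18.995, 18.966 and 18.834 in normoxia. The median spot signal ranged from 229.5 to 295 units on the hypoxic arrays and from 309 to 381 units on the normoxic arrays, so the hypoxic arrays were the dimmer ones. The arrays lay on 2 slides, with 2 hypoxic and 2 normoxic ones on either.

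Cathelicidins are host-defence peptides of myeloid cells. Each is made as a precursor with a signal peptide, a conserved cathelin domain and a variable antimicrobial tail, and in ruminants the precursors are stored in the large granules of neutrophils and cut by elastase after release. Their transcripts are made mainly in immature myeloid cells of the bone marrow. BAC5 and CATHL3 (Bac7.5) encode bactenecins whose tails are rich in proline and arginine. CATHL1B encodes the cyclic dodecapeptide, and SC5 encodes the precursor of an alpha-helical peptide. In the RefSeq table of assembly ARS-UI_Ramb_v3.0 the 4 genes lie in one cluster in the order CATHL1B, CATHL3, BAC5 and SC5. BAC5 directly follows CATHL3, 1 long noncoding RNA lies between BAC5 and SC5, and CDC25A is the next gene after SC5. No coordinates are given because the array files name no genome build.

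The probes are 60 bases long, and each holds 1 copy of the polyadenylation hexamer AATAAA, which stands at the 3′ end of the messenger. By comparison, 5.63% of the 15008 probes hold this hexamer (the strand printed in the files was searched). The 30 bases around it are shown for each gene, 5′ to 3′, because they show how far the 4 targets differ where all of them were probed. The hexamer is in capitals.

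BAC5: tgagtcagcatccaaaaAATAAAatcttgt

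CATHL3: acttctggacggtgaaaAATAAAttctggt

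CATHL1B: agctactggatctgaaaAATAAActcttgt

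SC5: acttctggactctgagaAATAAAttcttgt

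CATHL3 and SC5 were the most alike of these windows, with 26 of 30 bases identical, and BAC5 and CATHL3 the least alike, with 15 of 30. Over whole probes, the longest unbroken run shared by different genes was 12 bases, between CATHL3 and SC5. The best ungapped match between probes of different genes held 22 to 36 identical bases. No probe for any other target shared a run of 20 bases with a cathelicidin probe. Both BAC5 probes share 59 bases, as do both CATHL1B probes, so the second probe of a gene is close to a repeat measurement of the same target and not separate evidence. Whether RNA of one cathelicidin hybridised to the probe of another was not tested.

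The first BAC5 probe read 10.34, 6.61, 8.22 and 6.45 log2 units in hypoxic fetuses 1 to 4 and 9.63, 11.87, 9.04 and 9.88 in normoxic fetuses 1 to 4. The hypoxic group mean was 7.903 ± 1.808 and the normoxic mean 10.103 ± 1.227 (SD, n = 4), a difference of -2.20 ± 0.88 (SE), or 4.596-fold. The groups overlapped, because hypoxic fetus 1 lay above normoxic fetuses 1, 3 and 4, whereas hypoxic fetuses 2, 3 and 4 lay below the whole normoxic group. The raw spot brightness showed the same spread before any normalization, from 77.8 units in hypoxic fetus 4 to 3524 units in normoxic fetus 2. The second BAC5 probe gave a difference of -2.10 ± 0.82.

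CATHL3 read 9.82, 6.30, 8.13 and 6.14 log2 units in hypoxic fetuses 1 to 4 and 9.34, 10.96, 8.55 and 9.48 in normoxic fetuses 1 to 4. The means were 7.596 ± 1.733 and 9.580 ± 1.006 (SD, n = 4), a difference of -1.98 ± 0.81 (SE), or 3.96-fold. The groups overlapped through hypoxic fetus 1 here too. The scanner software marked CATHL3 as well above background on 2 of the 4 hypoxic arrays and on all 4 normoxic ones. The arrays of hypoxic fetuses 2 and 4 fell short of that mark, so the low end of CATHL3 is less well determined than that of the other 3 genes, which were well above background on all 8 arrays.

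The first CATHL1B probe read 10.319, 7.250, 8.675 and 6.975 log2 units in hypoxic fetuses 1 to 4 and 9.714, 12.379, 9.228 and 10.105 in normoxic fetuses 1 to 4. Its difference was -2.05 ± 0.84 (SE), or 4.15-fold, with a hypoxic mean of 8.30 ± 1.54 and a normoxic mean of 10.36 ± 1.40 (SD, n = 4). The order of the fetuses was that of BAC5 and CATHL3, and the groups overlapped through the same fetus. The second CATHL1B probe gave -2.09 ± 0.88 and the widest range of the family, 46.7-fold between normoxic fetus 2 and hypoxic fetus 4.

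SC5 read 9.38, 7.75, 8.09 and 7.86 log2 units in hypoxic fetuses 1 to 4 and 8.48, 10.38, 8.18 and 8.49 in normoxic fetuses 1 to 4. The means were 8.27 ± 0.75 and 8.88 ± 1.01 (SD, n = 4), and the difference of -0.61 ± 0.51 (SE), or 1.53-fold, was the smallest of the family. SC5 is spotted 5 times on each array, and the SD among these spots was 0.014 to 0.256, far below the SD of 0.89 over the 8 arrays. Normoxic fetuses 1 and 4, which are neighbours in order, lay within this spot error of each other. So did hypoxic fetuses 2 and 4, and hypoxic fetus 3 and normoxic fetus 3, so the order of such neighbours is not well determined. Without normoxic fetus 2, the SC5 difference was -0.11.

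**Figure D1:**
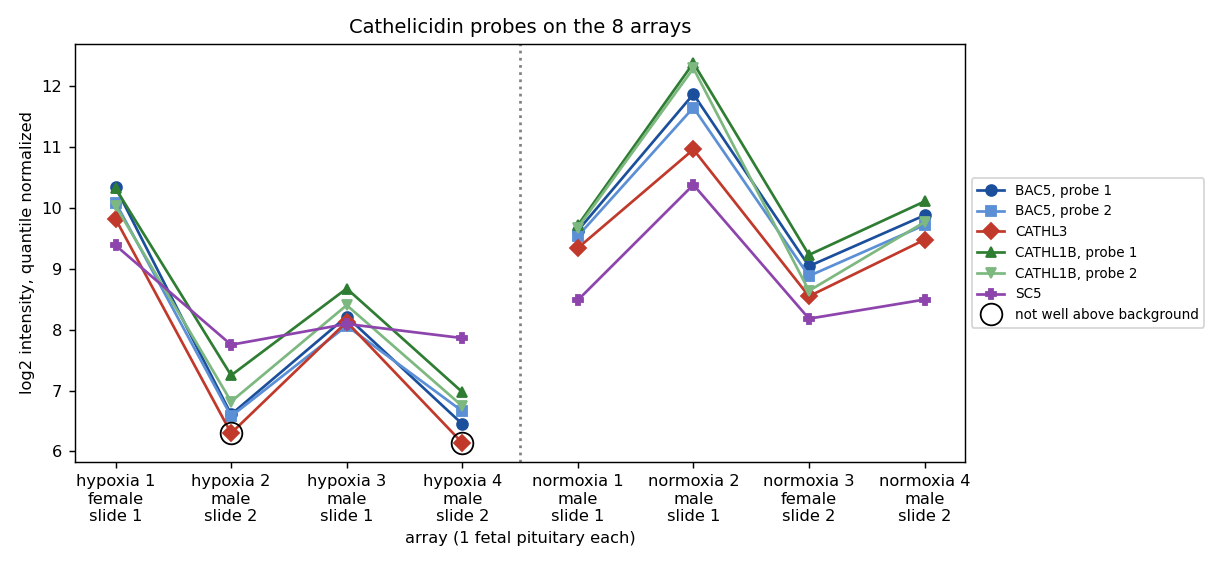
Log2 intensity (vertical axis, quantile normalized) of the 6 cathelicidin probes on the 8 arrays (horizontal axis, 1 fetal pituitary each, with sex and slide), with lines joining the values of a probe within a group and open circles marking CATHL3 where it was not well above background. All probes peak in normoxic fetus 2, are next highest in hypoxic fetus 1 and are lowest in hypoxic fetuses 2 and 4. The heights of different probes are not comparable.

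Of the 6 probes, 5 were among those called lower in hypoxia at an unadjusted limma p of 0.05 or below, SC5 being the exception. Over all retained probes 11% were called lower and 7.46% higher, and nothing is read from the members' count because this contrast was in view when they were chosen. When the arrays were brought to the same 75th percentile instead of being quantile normalized, 979 probes were called higher and 976 lower, against 973 and 1430. The members' calls rested on single arrays, as none of the 6 was called without hypoxic fetus 2, without hypoxic fetus 4 or without normoxic fetus 2, and 1 was called without normoxic fetus 4. The groups overlapped for all 6 cathelicidin probes, while 10.2% of all probes had groups that did not overlap. The median difference over all retained probes was -0.0049 log2 units. The paper reports a cathelicidin named CATHL5 as lower in hypoxia on the array. Its qPCR change was in the same direction, but was much smaller than that on the array and not significant. No probe of the family carries that name, so it was not matched to a member. In bulk tissue, fewer cells that make a transcript and less of it per cell cannot be told apart.

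Cathelicidins were among the most variable transcripts of these pituitaries. By SD over the 8 arrays, BAC5 ranked 2nd and 5th, CATHL1B 3rd and 4th, and CATHL3 8th among 13014 probes with a value on every array, and SC5 ranked 82nd. The SDs of the first 3 genes ran from 1.69 to 1.85 log2 units, against a median SD of 0.17 and a 95th percentile of 0.44 over all probes. From lowest to highest fetus, these probes spanned 28.2-fold (CATHL3) to 46.7-fold (CATHL1B), and SC5 spanned 6.18-fold. The lowest CATHL3 reading was not well above background, so its fold rests on a poorly determined low end. These ranks describe the measure by which BAC5 and CATHL3 were noticed, and are not tested.

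The members varied together from fetus to fetus. Pearson's r across the 8 arrays was 0.978 to 0.995 for the 8 probe pairs of different genes among BAC5, CATHL3 and CATHL1B, and Spearman's rho was 0.976 to 1. With each group's mean taken away, r was still 0.965 to 0.992, so the likeness was present inside the groups. Without the 2 arrays farthest from the median it was 0.977 to 0.994. BAC5 and CATHL3, which are neighbours in the genome, had an r of 0.995. SC5 followed the same order of fetuses (rho 0.976 to 1) with a lower r of 0.860 to 0.927. Relative to its neighbours it was compressed at the low end, where hypoxic fetuses 2 and 4 lay only slightly under the normoxic fetuses other than fetus 2. These correlations are descriptions over 8 arrays, and the probes share the array, its normalization and possibly target RNA.

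**Figure D2:**
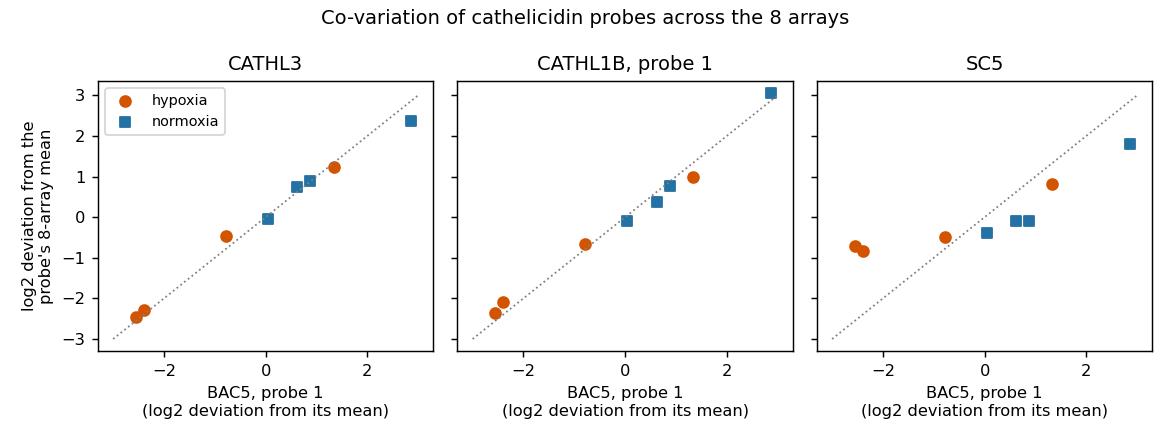
Deviation of CATHL3, CATHL1B (first probe) and SC5 from their own means over the 8 arrays (vertical axes, log2) against that of the first BAC5 probe (horizontal axes, log2), with 1 point per fetus, circles for hypoxia, squares for normoxia and a dotted line of equal deviation. CATHL3 and CATHL1B lie near the line (r of 0.995 and 0.993), whereas SC5 spreads less than BAC5.

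Averaged over the 6 probes, each taken as its deviation from its own mean, the cathelicidin profile was 1.09, -2.02, -0.64 and -2.10 log2 units in hypoxic fetuses 1 to 4. It was 0.49, 2.68, -0.15 and 0.67 in normoxic fetuses 1 to 4. Hypoxic fetus 1 and normoxic fetus 3 were the only females. In the males, all 6 probes were lower in each of the 3 hypoxic fetuses than in any of the 3 normoxic ones, with differences from -1.22 (SC5) to -3.37 (first BAC5 probe). The share of all probes whose male groups lie apart is not given, so nothing is read from this separation. In the female pair every probe was higher in the hypoxic fetus, by 1.09 to 1.40 log2 units. The hypoxic female lay on slide 1 and the normoxic female on slide 2, whereas 2 of the 3 hypoxic males lay on slide 2 and 2 of the 3 normoxic males on slide 1. The interaction of hypoxia with sex, a fit added after the female pair had been seen, was 2.42 log2 units for SC5 and 4.19 to 4.66 for the other probes. None of these passed adjustment (limma, adjusted p = 0.611 to 0.744), although all 6 had an unadjusted p of 0.05 or below, as did 6.57% of all probes. With slide in the same fit the interaction was 1.60 for SC5 and 2.52 to 2.96 for the other probes, and none of the 6 had an unadjusted p of 0.05 or below (limma, adjusted p = 0.794 to 0.880). Both fits assume that the lone female of a group varies as the males do, and the 6 probes, which vary together, give 1 observation and not 6. With 1 female a group, sex cannot be told apart from the individual fetus.

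The slide on which an array lay also moved with the cathelicidins. With hypoxia in the fit, slide 2 minus slide 1 was between -1.01 ± 0.41 (SC5) and -2.11 ± 0.58 (second CATHL1B probe) log2 units (SE), lower on slide 2 for every probe. All 6 had an unadjusted p of 0.05 or below for slide, against 5.19% of all probes, and none passed adjustment (limma, adjusted p = 0.634 to 0.949). The 6 probes vary together, so they are not separate observations and nothing is read from their count. Within slide 1 the hypoxia differences ran from -0.69 (SC5) to -1.77 (second CATHL1B probe), with groups that overlapped. Within slide 2 they ran from -0.53 (SC5) to -2.93 (first BAC5 probe), with groups of 2 that did not overlap. The share of all probes with such groups is not given, so nothing is read from a separation of 2 against 2. The interaction of hypoxia with slide had an unadjusted p above 0.05 for all 6 probes (limma, adjusted p = 0.708 to 0.969), while 7.45% of all probes were at or below 0.05.

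**Figure D3:**
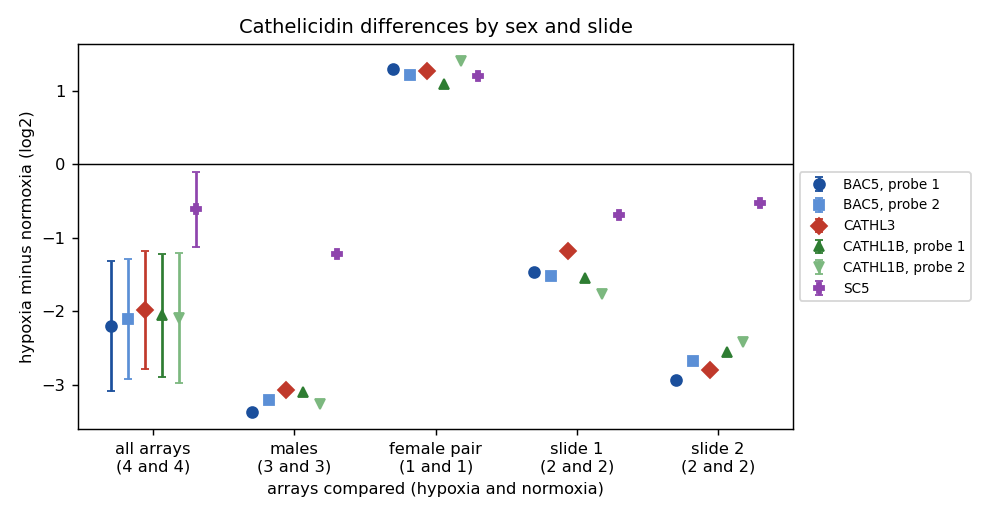
Hypoxia minus normoxia (vertical axis, log2) for the 6 cathelicidin probes over all arrays, among males, in the female pair and within each slide (horizontal axis, with the number of hypoxic and normoxic arrays), where the bars at all arrays are limma SEs and the other points have none. Every probe is below 0 in each comparison except the female pair, where they lie between 1.09 and 1.40.

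The array signal and gestational age also differed between the groups, and their part cannot be told apart from that of hypoxia, since the ranges of brightness do not overlap and those of age meet only at 129 days. With array brightness as a covariate (the log2 median spot signal), the differences ran from -0.67 ± 1.39 (CATHL3) to -1.49 ± 1.62 (second CATHL1B probe). With gestational age they ran from -0.94 ± 0.82 (SC5) to -2.03 ± 1.44 (first BAC5 probe). The SEs of these fits were larger than those without a covariate, in which the 6 SEs were 0.51 to 0.88, and none of the 6 probes was called in either. The difference of CATHL3 was -3.42 when the scanner's processed signal was scaled to each array's 75th percentile, which replaces both the normexp correction and the quantile normalization.

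Among named genes outside the family, lactoferrin (LTF), an iron-binding protein of neutrophil secondary granules, had one of the profiles most like the cathelicidins, with r = 0.916 over the 8 arrays. LTF read 6.59, 6.09, 6.34 and 6.32 log2 units in hypoxic fetuses 1 to 4 and 6.57, 7.34, 6.43 and 6.65 in normoxic fetuses 1 to 4. As in the cathelicidins, the highest fetus was normoxic fetus 2, and hypoxic fetus 1 was the highest of its group. LTF was well above background on 6 of 8 arrays, falling short of it on those of hypoxic fetuses 2 and 4, and moved by 0.21 log2 units for each unit of the cathelicidin profile. The other 4 most alike were ACVR1, a receptor for bone morphogenetic proteins (r = 0.918), TBP, the TATA-binding protein (r = 0.885), CALM2, a calmodulin (r = 0.882), and PR, the array's name for the prolactin receptor (r = 0.874). The SDs of these 4 over the arrays were 0.12 to 0.21 log2 units, a small fraction of that of the cathelicidins. The least alike were ATP5PD, a subunit of mitochondrial ATP synthase (r = -0.9499), and MYOD1, the myogenic transcription factor (r = -0.9046).

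A high correlation was shared with 59 other probes, of which 2 had a gene name, at an r of 0.9 or more with the profile, and 81 probes had an r of -0.9 or less. The largest SD among the 59 was 0.74. Conversely, 51 other probes had an SD of 1 or more, and the highest r among them was 0.648. The place of the members in the plot of spread against likeness was set by how they were chosen and by the profile they make up, and nothing is read from it.

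**Figure D4:**
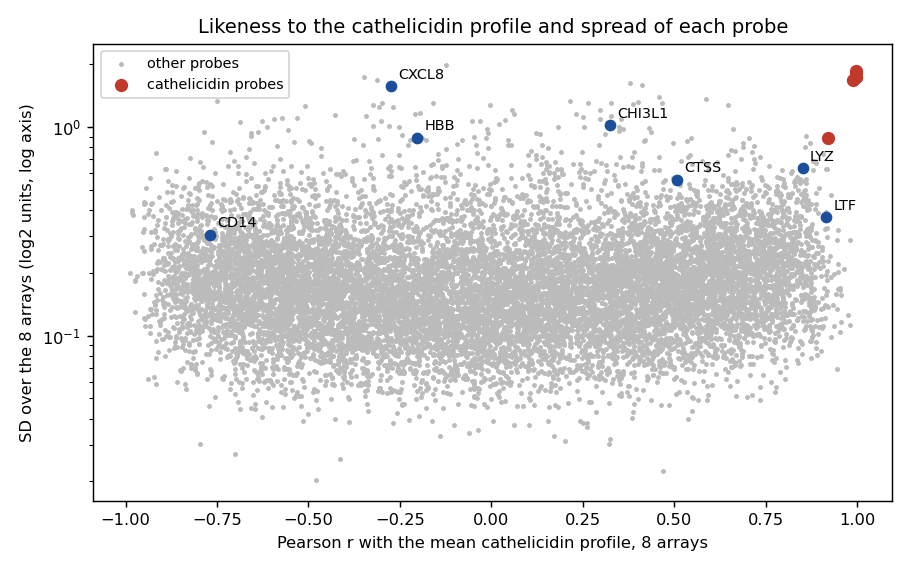
SD over the 8 arrays (vertical axis, log2 units on a log axis) against Pearson's r with the mean cathelicidin profile (horizontal axis) for 13014 probes, with the cathelicidin probes in red, other probes in grey and 7 named genes in blue. The members contribute to the profile themselves, so their r is high by construction. They lie at the upper right, SC5 (SD 0.89) lower than the others, whereas LTF (r = 0.916) and LYZ (r = 0.851) have smaller SDs.

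The remaining genes of the neutrophil granule list were read next to the family, since neutrophils are the cells best known for cathelicidins. Of the 4 measured, 1 was called lower in hypoxia and none was called higher, with a median difference of -0.57. These counts stand beside the 11% of all probes that were called lower and the 7.46% called higher. LYZ, the lysozyme that cleaves bacterial cell walls and that macrophages also make, read 7.252, 6.855, 6.794 and 6.800 log2 units in hypoxic fetuses 1 to 4 and 8.003, 8.441, 7.300 and 7.977 in normoxic fetuses 1 to 4. The LYZ groups did not overlap, and its difference was -1.005 ± 0.217 (SE; limma, adjusted p = 0.087, not under 0.05). LYZ also followed the cathelicidin profile (r = 0.851), and its highest hypoxic fetus was the same fetus 1. Its second probe gave a difference of -0.85 ± 0.17 and an r of 0.630. With each group's mean taken away, r was 0.789 for the first LYZ probe and 0.250 for the second. The LTF difference was -0.41 ± 0.19 and that of CHI3L1, a chitinase-like glycoprotein, was -0.72 ± 0.59, and neither was called. CHI3L1 followed the cathelicidin profile only weakly (r = 0.325). It was lowest of its group in normoxic fetus 2, where the cathelicidins peaked. It read 6.897 log2 units there, against 8.832, 8.998 and 8.635 in normoxic fetuses 1, 3 and 4. In hypoxia its highest fetus was fetus 1, at 8.849, as in the cathelicidins. MMP9, the gelatinase of tertiary granules, gave -0.02 ± 0.08 and an r of 0.157, and was well above background on 5 of 8 arrays. Over the 4 genes the mean log2 intensity was 6.39 to 7.22 in hypoxic fetuses and 7.25 to 7.42 in normoxic fetuses. Their part in the cathelicidin result was not tested.

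General phagocyte markers gave a mixed picture. Of 11 measured, 1 was called lower and none higher, where 11% of all probes were called lower, with a median difference of 0.04 and a median r of -0.218 with the cathelicidin profile. The called gene was CTSS, cathepsin S, a protease of antigen-presenting cells, at -0.79 ± 0.24 (limma, adjusted p = 0.132) and an r of 0.508. With each group's mean taken away, the r of CTSS was 0.092. ITGB2, the beta chain of leukocyte integrins, differed by -0.14 ± 0.15, and CD14, the lipopolysaccharide co-receptor of monocytes, by 0.04 ± 0.20. CD14 ran against the cathelicidins across fetuses, with r = -0.769. The list's mean log2 intensity was 7.36 to 7.45 in hypoxic fetuses and 7.43 to 7.57 in normoxic ones.

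Receptors and regulators of cathelicidins were read beside all probes, of which 7.46% were called higher and 11% lower. Of the 9 measured, each by its brightest probe, 1 was called higher and none lower. It was NFKBIA, the NF-kappa-B inhibitor that NF-kappa-B itself induces, at 12.04, 12.46, 14.09 and 12.93 log2 units in hypoxic fetuses 1 to 4 and 11.84, 11.22, 11.75 and 11.31 in normoxic fetuses 1 to 4. Its difference was 1.35 ± 0.38 (SE; limma, adjusted p = 0.120), and the groups did not overlap. The differences of the neutrophil chemokine CXCL8 (1.16 ± 0.89), of TNF (0.94 ± 0.74) and of IL1B (0.60 ± 0.53) were not called. All 3 rested on hypoxic fetus 3, where CXCL8 reached 11.78, TNF 10.64 and IL1B 9.90, against 6.90 to 7.79, 6.87 to 7.03 and 7.10 to 7.49 in the other hypoxic fetuses. Without that fetus the differences were 0.08, 0.02 and -0.04, and that of NFKBIA was 0.95 ± 0.23. Neither hypoxic fetus 1 nor normoxic fetus 2, the cathelicidin-high ones, was high in CXCL8, at 6.90 and 7.33. For HIF1A the brightest probe, at -0.19 ± 0.09, was not called. Its second probe, which is outside the count, was called lower at -0.20 ± 0.08 (limma, adjusted p = 0.216).

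The lists for other cells that could be carried with a pituitary are given for the same reason. Of 3 red cell genes, the erythropoietin receptor EPOR was called higher (0.32 ± 0.11, adjusted p = 0.178, limma), with an r of -0.857 with the cathelicidins. Beta globin (HBB, 0.62 ± 0.51) and the alpha globin chaperone AHSP (0.69 ± 0.42) were not called, with r of -0.203 and 0.107. None of 4 bone and cartilage genes was called, among them the collagens COL1A2 (-0.06 ± 0.26) and COL2A1 (0.42 ± 0.41) and osteocalcin (BGLAP, -0.11 ± 0.30). By its brightest probe none of 5 lymphocyte genes was called, among them the T cell genes CD247 (-0.21 ± 0.10) and CD5 (0.08 ± 0.07). The second CD247 probe was called lower, at -0.24 ± 0.09 (limma, adjusted p = 0.212). A further T cell receptor complex gene, CD3E, had the highest r of the lymphocyte list (0.791) and a difference of -0.46 ± 0.25, but its second probe gave an r of 0.441 and -0.15 ± 0.10. Of 12 anterior lobe genes only FSHB was called (0.46 ± 0.19, adjusted p = 0.241, limma), and of 4 posterior lobe and glia genes only OXT (0.39 ± 0.13, adjusted p = 0.156, limma), not vimentin (VIM, 0.14 ± 0.19) or the water channel AQP4 (0.03 ± 0.35). The 1 measured antimicrobial gene of another kind, GNLY, differed by 0.13 ± 0.10. Over the 9 lists, 4 of 53 genes were called higher and 2 lower, where 7.46% of all probes were called higher and 11% lower. None of the 53 had an adjusted p under 0.05.

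**Figure D5:**
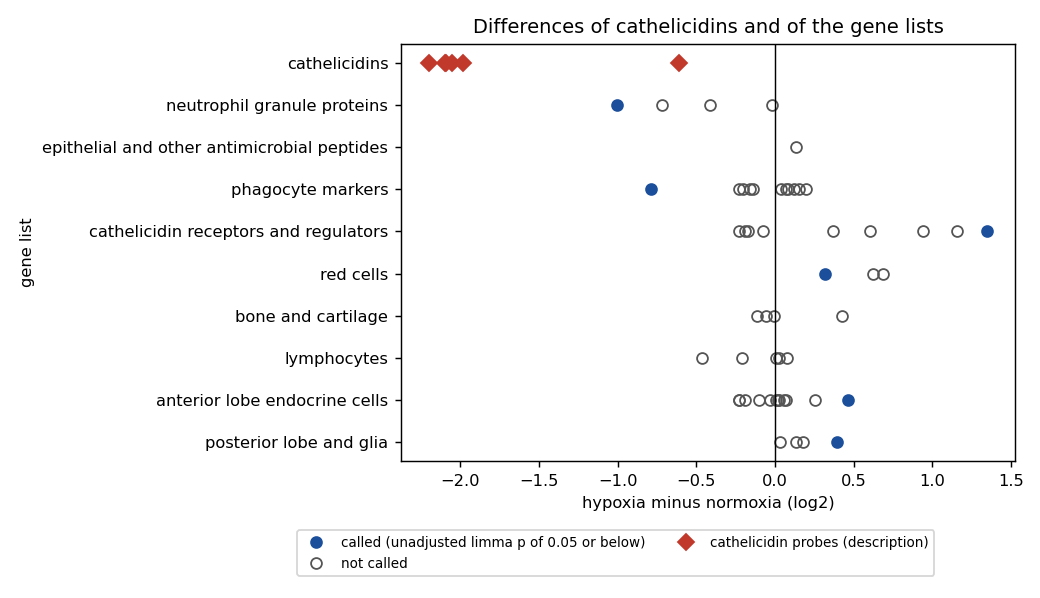
Hypoxia minus normoxia (horizontal axis, log2) for the 6 cathelicidin probes (diamonds) and for the genes of 9 lists (rows), each by its brightest probe, with filled circles for genes called at an unadjusted limma p of 0.05 or below. The cathelicidins lie from -2.20 to -0.61, and the list gene farthest to the left is LYZ at -1.005.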

How the data were processed

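The authors deposited spot intensity values read from 1-colour arrays by Agilent Feature Extraction 10.1.1.1, per the labels, and log2 values that they had background corrected, quantile normalized and filtered in limma. Here the mean spot intensity was corrected by normexp (offset 50) in limma 3.58.1 under R 4.3.3, all spots were quantile normalized, and the spots of a probe were averaged. Control and outlier spots were left out. A probe was kept when, on 3 or more arrays, it reached 1.1 times the negative controls' 95th percentile. Hypoxia and normoxia were compared over 8 arrays with limma's lmFit and eBayes, an unadjusted p of 0.05 or below being called, as in the methods of the study. Adjusted values are Benjamini-Hochberg values over all retained probes. Only the lmFit and eBayes fit was tested on simulated data, in which each probe varied independently. The background correction, normalization and filter were not tested in this way. Precision is limited by the number of arrays.

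The members and the gene lists were chosen with earlier results of these data known. Named genes were all cathelicidin probes, the called and the 3 brightest genes of each list (each by its brightest probe), and the 5 named genes most like and 2 least like the cathelicidin profile. MMP9, TNF and HIF1A, which are outside that rule, were named after their values were seen. Gene names came from the array or, by accession, from RefSeq. Fits with array brightness, among males and with interactions were added after seeing the data. The alternatives tried concerned background correction, spot signal, normalization, filter, covariates and single arrays.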

Additional observations from a re-analysis of the deposited data

Results flagged for a closer look

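Arrays that stood apart from the others of their group were looked for in 80 groups of 4 arrays (40 genes or probes), of which chance would mark about 1 in 20, and 6 were found. In the family, SC5 stood apart in normoxic fetus 2, at 10.38 against 8.18 to 8.49 in the other normoxic fetuses. The other cathelicidins were also highest there, but their normoxic values were more evenly spread. LYZ was 7.25 in hypoxic fetus 1, the fetus with high cathelicidins, against 6.79 to 6.86 in the other hypoxic fetuses. IL1B was 9.90 in hypoxic fetus 3, against 7.10 to 7.49, and TNF was 10.64 there, against 6.87 to 7.03. GNLY was 7.63 in hypoxic fetus 4, against 7.29 to 7.33, and FSHB was 15.17 in normoxic fetus 3, against 14.22 to 14.36.

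The female pair differed from the males in direction. Hypoxia minus normoxia was 1.29 and 1.21 for the first and second BAC5 probes, 1.27 for CATHL3, 1.09 and 1.40 for the first and second CATHL1B probes and 1.20 for SC5 in the female pair, where the males gave -1.22 to -3.37. The interaction with sex had limma adjusted p = 0.611 to 0.744, and 0.794 to 0.880 with slide in the fit. There was 1 female in each group, the hypoxic one on slide 1 and the normoxic one on slide 2, and the first BAC5 probe was -2.02 for slide 2 minus slide 1.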

How the results depend on the processing

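No cathelicidin difference changed sign under the 20 alternatives run for it, but the calls did not hold in all of them. Of the 6 probes, 5 were called, against none without hypoxic fetus 2, without hypoxic fetus 4, without normoxic fetus 2, with gestational age or with array brightness. There was 1 call without normoxic fetus 4, and there were 3 calls without normoxic fetus 1 and 4 without hypoxic fetus 3. In males alone, a fit added after seeing the data, all 6 were called. That fit called 1066 probes higher and 1607 lower in all. The mean difference over the 6 probes was -1.84, and ranged from -2.87 (males alone) to -1.14 (array brightness as a covariate). Leaving out 1 array at a time, it ran from -2.51 (without hypoxic fetus 1) to -1.25 (without normoxic fetus 2), and that of SC5 from -0.98 to -0.11 (without the same fetuses). The SC5 difference was also -0.94 with gestational age as a covariate. The CATHL3 difference ranged from -3.42 with the processed signal scaled to the 75th percentile to -0.67 with array brightness, and was -2.71 in the deposited log2 values, and the cause was not tested. The median correlation between probes of different genes was 0.964 to 0.992.

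Probes called higher and lower numbered 973 and 1430. They became 373 and 445 with gestational age, 263 and 288 with array brightness, 979 and 976 under scaling to a common 75th percentile, and 552 and 770 when groups had to be free of overlap. Leaving out 1 array, they ran from 650 to 1194 and from 969 to 1662. List genes called higher (4) became 8 under scaling to a common 75th percentile, 2 with gestational age and 1 without overlap, and 2 to 5 when 1 array was left out. List genes called lower (2) became 6 with the processed signal scaled to the 75th percentile (in place of both normexp and quantile normalization), 6 in males alone, 4 with slide as a block, 4 with array brightness and 4 with the mean of a gene's probes, and 2 to 6 when 1 array was left out. Over the 8 fits without 1 array, LYZ, CTSS, NFKBIA and OXT lost no call, EPOR lost 3 and FSHB lost 6.

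Replicate numbers did not pair the fetuses: deviations of same-numbered arrays correlated at -0.05, 0.02, 0.12 and -0.10. With the replicate block, 831 probes were called higher and 1291 lower, 5 and 3 list genes were called, and the mean cathelicidin difference stayed at -1.84.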
